A study of Mus musculus with 6 samples.

Results

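ASXL, Polycomb and H3K27 demethylase genes were examined in RNA sequencing of mouse acute erythroid leukemia (AEL) cells and of wild-type marrow cells (NC). The NC libraries held transcripts of erythroid markers and also those of neutrophils and macrophages, as given below. The 10 genes were taken by name from the deposited table of 13007 genes, and all 10 were found in it: Asxl1, Asxl2 and Bap1 of the ASXL-BAP1 complex, Ezh1, Ezh2, Eed and Suz12 of Polycomb repressive complex PRC2, Bmi1 of PRC1, and the H3K27 demethylases Kdm6a and Kdm6b. The AEL group had 3 libraries of GFP-positive bone marrow cells on the C57BL/6 strain, sorted after transduction with ERG (a transcription factor of the ETS family) and labelled Trp53-/- and ERG-expressing. The NC group had 3 libraries of wild-type C57BL/6 marrow, sorted after staining for CD71 and Ter119, the surface markers of red cell precursors. The source label of every library, NC included, also speaks of transformation through mutated SETBP1 and ASXL1; for NC that conflicts with the genotype WT, and nothing else in the labels settles it. They do not say how an ASXL1 mutation was brought in, and reads of an introduced copy could count toward mouse Asxl1. The replicates are labelled biological, with no animal or age given, so the p-values reflect spread among these libraries only, which may be technical.

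Polycomb complexes keep developmental genes silent by marking histones. PRC2, built on EED and SUZ12 with EZH1 or EZH2 as its enzyme, methylates lysine 27 of histone H3, and KDM6A (also called UTX) and KDM6B (also called JMJD3) remove that methyl mark. PRC1, in which BMI1 (also called PCGF4) pairs with a RING protein, places ubiquitin on histone H2A, and BAP1, a deubiquitinase that needs an ASXL protein for its activity, takes that ubiquitin off. In human myeloid disease ASXL1 and EZH2 are often mutated, and Bmi1 is known for maintaining blood stem cells and repressing the Cdkn2a locus in mice.

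The promoters of the 4 genes that rose in AEL, and of Bap1, which fell, are shown so that the sequence at their start sites can be read beside the values below. Each run of 300 bases (RefSeq, GRCm38.p6) covers 250 bases before and 50 after the start site listed there, read 5′ to 3′ on the strand of the gene. Capitals mark 7-letter matches to the ETS motif CCGGAAG or the E2F motif forms TTCCCGC and TTGGCGC, the 6-letter E-box CACGTG and the CCAAT box, searched on both strands. A match is a description of letters and not a binding site.
Asxl1: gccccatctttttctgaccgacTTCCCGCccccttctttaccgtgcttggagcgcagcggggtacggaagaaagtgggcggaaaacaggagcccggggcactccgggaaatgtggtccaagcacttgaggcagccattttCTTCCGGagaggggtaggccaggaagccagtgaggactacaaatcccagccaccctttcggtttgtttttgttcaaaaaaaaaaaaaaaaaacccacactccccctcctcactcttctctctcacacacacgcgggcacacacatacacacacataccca
Asxl2: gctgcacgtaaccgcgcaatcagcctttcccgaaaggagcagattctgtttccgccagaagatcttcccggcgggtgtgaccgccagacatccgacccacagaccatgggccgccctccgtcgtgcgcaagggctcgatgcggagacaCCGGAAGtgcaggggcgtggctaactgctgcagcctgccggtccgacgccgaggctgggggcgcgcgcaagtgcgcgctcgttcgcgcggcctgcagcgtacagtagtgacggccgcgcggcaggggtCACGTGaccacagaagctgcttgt
Bmi1: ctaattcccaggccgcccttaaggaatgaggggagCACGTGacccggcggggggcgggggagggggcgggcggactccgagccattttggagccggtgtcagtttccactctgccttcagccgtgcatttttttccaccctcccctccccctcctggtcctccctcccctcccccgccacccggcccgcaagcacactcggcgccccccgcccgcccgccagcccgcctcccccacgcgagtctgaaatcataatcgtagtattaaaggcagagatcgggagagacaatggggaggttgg
Ezh1: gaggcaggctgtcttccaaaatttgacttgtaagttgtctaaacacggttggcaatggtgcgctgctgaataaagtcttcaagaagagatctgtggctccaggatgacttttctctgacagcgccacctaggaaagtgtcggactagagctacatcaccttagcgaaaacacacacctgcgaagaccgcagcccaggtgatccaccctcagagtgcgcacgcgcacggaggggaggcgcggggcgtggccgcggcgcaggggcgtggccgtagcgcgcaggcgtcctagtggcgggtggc
Bap1: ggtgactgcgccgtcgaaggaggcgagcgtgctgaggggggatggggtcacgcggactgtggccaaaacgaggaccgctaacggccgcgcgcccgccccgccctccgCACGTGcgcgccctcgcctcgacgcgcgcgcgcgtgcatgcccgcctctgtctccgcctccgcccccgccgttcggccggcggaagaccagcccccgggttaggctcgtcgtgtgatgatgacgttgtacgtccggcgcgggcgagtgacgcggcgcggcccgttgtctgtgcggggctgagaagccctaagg

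These windows lie at chr2:153345580-153345879 (+) for Asxl1, chr12:3426607-3426906 (+) for Asxl2, chr2:18676768-18677067 (+) for Bmi1, chr11:101226414-101226713 (-) for Ezh1 and chr14:31251239-31251538 (+) for Bap1. The ETS letters were in the Asxl1 and Asxl2 windows, 2 of the 9 member promoters listed, against 8.86% of the 32851 promoters in the table. The E-box was in 4 of the 9 (Asxl2, Bap1, Bmi1 and Kdm6a), against 7.15% of all promoters, and no capitals appear in Ezh1. The first E2F form was in Asxl1 and Suz12, against 4.60% of all promoters, and the second in Ezh2 alone among the 9, against 2.45%. The CCAAT box was in 3 of the 9, Ezh2, Eed and Suz12, against 37.4%, and Ezh2 held 3 copies of it. All 9 windows were richer in CpG than the median promoter, with 13 (Asxl1) to 50 (Bap1) CpG each against a median of 7. The ETS, E2F and E-box letters contain CpG, and no background of like CpG content was used, so enrichment cannot be judged. Kdm6b had no entry.

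Library totals were 8541477 to 9945330 counts in AEL and 8171676 to 9385507 counts in NC. Trp53 held 1171, 1092 and 976 CPM (counts of a gene relative to its library total, scaled with TMM factors) in the AEL libraries labelled Trp53-/- and 177, 175 and 162 CPM in NC, and counts per gene do not show which part of it was read; the label could not be checked from it. Erg averaged 677 ± 117 CPM over AEL, beside 6.82 ± 2.17 CPM over NC (SD, n = 3 per group). The groups differed in their cells as well. The summed level of 11 erythroid markers was 4361 to 10414 CPM over AEL, beside 39016 to 51752 CPM in NC. The globins Hbb-bs and Hba-a1 made up most of the NC sum, with means of 15702 and 17783 CPM in NC and 983 and 2356 CPM in AEL. Of the 11 genes 8 fell, 0 rose and 3 did not pass (Gata1, Epor and Ermap). The sum of 12 neutrophil markers was 18.1 to 1089 CPM over AEL, beside 7600 to 8870 CPM in NC, and that of 12 monocyte and macrophage markers was 9.79 to 262 CPM over AEL, beside 3922 to 4681 CPM in NC. In each of these 2 lists 11 of 12 genes fell, and Spic was at 0 in every AEL library. C1qa, a defining macrophage gene, was at 0.338, 0.651 and 0.457 CPM in the AEL libraries, against 425, 453 and 470 CPM in NC. Sums for B cell, T and NK cell, mast cell group and stromal markers were also lower in every AEL library than in any NC library. By gene, 10 of 10 B cell and 3 of 3 tested T and NK genes fell, with 4 of 7 in the mast cell group and 6 of 8 stromal genes. Cpa3, Fcer1a, Ms4a2, Col1a2 and Kdr did not pass, and their groups overlapped. The megakaryocyte sum was higher (173 to 449 CPM in AEL, 113 to 134 CPM in NC). Of the 7 megakaryocyte genes 3 rose (Itga2b, Gp1ba and Vwf) and 2 fell (Gp9 and Ppbp), and Ppbp was at 0 in every AEL library. In such bulk samples, fewer cells of a type and less RNA per cell cannot be told apart.

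Of the 10 genes, 4 rose in AEL (Bmi1, Asxl1, Asxl2 and Ezh1), 2 fell (Kdm6b and Bap1) and 4 did not pass (Ezh2, Eed, Suz12 and Kdm6a), by edgeR's quasi-likelihood test at an adjusted p under 0.05. In this comparison 52.8% of the 12427 genes tested passed, 23.9% higher and 29.0% lower, so 6 of 10 was near the background. Their median log2 fold change of AEL over NC was -0.04, beside -0.05 for all genes tested. The 3 AEL libraries lay above the 3 NC libraries for 4 of the genes and below them for another 4, where 66.0% of all genes tested separated the groups in this way, 29.9% above and 36.1% below. AEL libraries differed more from each other than NC libraries did for 9 of the 10, Asxl2 being the exception, and across 8932 genes with a mean CPM of at least 10 the median SD of log2 CPM was 0.28 in AEL and 0.12 in NC.

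**Figure D1:**
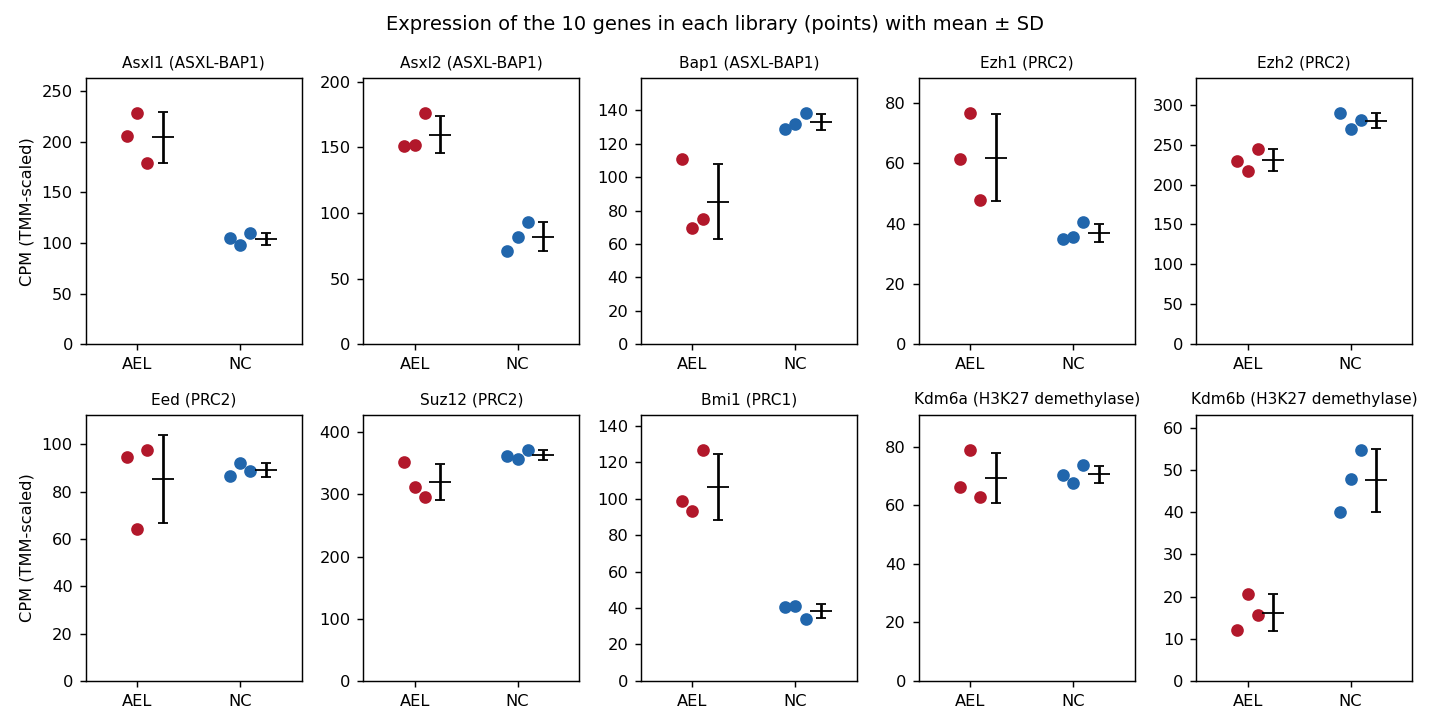
CPM on a linear axis for each of the 10 genes in the 3 AEL (red) and 3 NC (blue) libraries, with black bars for mean ± SD. Asxl1, Asxl2, Ezh1 and Bmi1 sit higher in every AEL library, Kdm6b, Bap1, Ezh2 and Suz12 sit lower, and the groups overlap for Eed and Kdm6a.

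Both ASXL genes rose, by 1.96 times for Asxl1 and 1.95 times for Asxl2, while Bap1 fell. Asxl1 (chromosome 2, 153345830 to 153404007, GRCm38) had 205, 228 and 178 CPM in the AEL libraries, against 105, 97.8 and 109.5 CPM in NC. Every AEL library held more than any NC library, and the log2 fold change was 0.97 with SE 0.13 (edgeR, adjusted p = 0.00130). Asxl2 (chromosome 12, 3426857 to 3510811), its close relative in the same complex, stood at 151, 151 and 176 CPM in the AEL libraries, against 70.8, 82.0 and 93.4 CPM in NC. The groups were again apart, with a log2 fold change of 0.96 with SE 0.14 (edgeR, adjusted p = 0.00192). The log2 CPM difference of Asxl2 minus Asxl1 averaged -0.35 ± 0.30 in AEL and -0.35 ± 0.19 in NC (SD, n = 3 per group), a difference of 0.0014 between groups (exact permutation p = 1.0, two-sided). Of the 10 genes, 6 share 155 to 286 exon bases with a transcript on the opposite strand, and whether counting used strand is not stated. For Asxl1 and Asxl2 these were 2500004C02Rik and 1110002L01Rik, with means of 6.98 and 4.19 CPM over AEL, beside 7.25 and 2.14 CPM in NC. For Eed it was E230029C05Rik, with a mean of 0.0680 CPM over AEL, beside 8.11 CPM in NC; those for Ezh2, Suz12 and Kdm6b were not analysed here.

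Bap1 (chromosome 14, 31251352 to 31259930), the catalytic subunit, stood at 111, 69.8 and 75.1 CPM in the AEL libraries, against 129, 132 and 138 CPM in NC. All 3 AEL libraries were below the NC libraries, AEL replicate 1 the least so, and the log2 fold change was -0.64 with SE 0.19 (edgeR, adjusted p = 0.0267). The call was lost without AEL replicate 3 (adjusted p = 0.0559), without NC replicate 1, 2 or 3 (adjusted p = 0.0708, 0.0761 and 0.0855, edgeR) and with library totals alone in place of TMM scaling (adjusted p = 0.0634). Chromosome 14 as a whole was lower in AEL: its 301 genes with a mean CPM of at least 10 had a median log2 fold change of -0.44, with 26 higher and 105 lower, and its part in the change of Bap1 was not tested. The genes next to Bap1 did not pass. Phf7, annotated up to 8 bases from Bap1, was at 27.1, 16.1 and 11.4 CPM over AEL, beside 10.3, 11.7 and 11.4 CPM in NC, and Capn7, on the other side, was at 64.4 ± 22.6 CPM over AEL, beside 71.3 ± 2.79 CPM over NC (SD, n = 3 per group).

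Among other genes of this deubiquitinase complex, 4 of 7 tested rose, 0 fell and the list median log2 fold change was 0.66. Over all genes tested 23.9% rose and 29.0% fell. Foxk1, a forkhead factor that binds BAP1, rose to 109.6, 127 and 128 CPM in the AEL libraries, against 37.4, 36.4 and 40.4 CPM in NC (log2 fold change 1.67, SE 0.12). Kdm1b, an H3K4 demethylase, rose by 1.10 (SE 0.25) and Ogt, the O-GlcNAc transferase, by 0.66 (SE 0.15) on the log2 scale. Hcfc1, a large scaffold bound by BAP1, was at the threshold with a log2 fold change of 0.49 with SE 0.17 (edgeR, adjusted p = 0.0498), and its call was lost with the replicate block, without a filter on low counts, without AEL replicate 1 and without any NC replicate (adjusted p up to 0.166). The calls of Kdm1b and Ogt were lost without NC replicate 2 (edgeR adjusted p = 0.0514 and 0.0539). Foxk2, Mbd5 and Mbd6 did not pass.

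In PRC2 the enzyme Ezh1 rose, while Ezh2, Eed and Suz12 did not pass. Ezh1 (chromosome 11, 101191115 to 101226463) stood at 61.3, 76.6 and 47.7 CPM in the AEL libraries, against 34.9, 35.4 and 40.4 CPM in NC. The lowest AEL library was still above the highest NC library, and the log2 fold change was 0.74 with SE 0.20 (edgeR, adjusted p = 0.0183). This call was lost without NC replicate 1 or 2 (adjusted p = 0.0713 and 0.0707, edgeR) and with the replicate number as a block (adjusted p = 0.0517). Ezh2 (chromosome 6, 47530274 to 47595270), the main enzyme of dividing cells, stood at 229.9, 217 and 245 CPM in the AEL libraries, against 289, 269.9 and 281 CPM in NC. Every AEL library was below every NC library, yet the difference was small, with a log2 fold change of -0.28 (95% interval -0.52 to -0.04) and an edgeR adjusted p of 0.0521. Of 16 alternatives 5 called it, among them DESeq2 (adjusted p = 0.0403) and limma at a pseudocount of 1 CPM (adjusted p = 0.0414). With library totals alone the log2 fold change of Ezh2 was -0.09 (edgeR adjusted p = 0.508), and with the replicate block it was -0.28 (edgeR adjusted p = 0.139).

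The ratio of Ezh2 to Ezh1 was lower in each AEL library than in any NC library. Counts of Ezh2 were 3.75, 2.83 and 5.14 times those of Ezh1 in AEL replicates 1, 2 and 3, against 8.28, 7.62 and 6.94 times in NC. The log2 CPM difference of Ezh2 minus Ezh1 averaged 1.91 ± 0.43 in AEL and 2.91 ± 0.13 in NC (SD, n = 3 per group), a change of -0.99. The exact permutation p was 0.1 (two-sided), the smallest that 3 against 3 libraries allow. Per length of exon Ezh2 stayed the higher of the pair in both groups, at 34.5 ± 2.10 CPM per kilobase for Ezh2 and 8.32 ± 1.95 for Ezh1 in AEL, and at 41.9 ± 1.47 and 4.96 ± 0.41 in NC (SD, n = 3 per group).

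**Figure D2:**
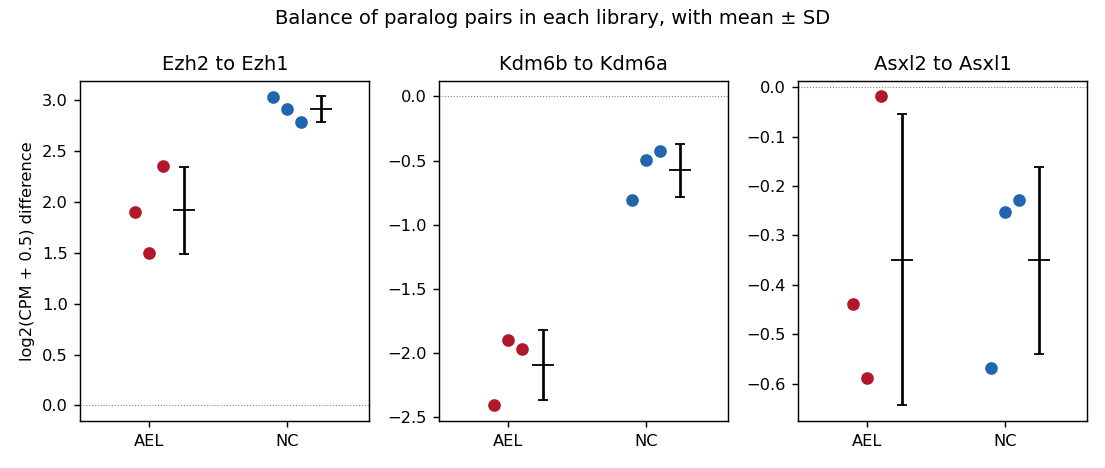
Difference in log2(CPM + 0.5) between the genes of 3 paralog pairs in each library, with the mean ± SD beside the points. Ezh2 minus Ezh1 and Kdm6b minus Kdm6a are lower in every AEL library than in any NC library, and Asxl2 minus Asxl1 overlaps.

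Eed (chromosome 7, 89954654 to 89980976), the subunit that reads the H3K27 methyl mark, was at 94.5, 64.0 and 97.7 CPM in the AEL libraries, against 86.6, 92.3 and 88.7 CPM in NC. AEL replicate 2 was the lowest of all libraries and the other AEL libraries were the highest, so the groups overlapped, with a log2 fold change of -0.06 (95% interval -0.48 to 0.36). Suz12 (chromosome 11, 79993106 to 80034123), the scaffold subunit, was at 352, 311 and 296 CPM in the AEL libraries, against 362, 357 and 372 CPM in NC. All AEL libraries were below NC, but the log2 fold change of -0.19 (95% interval -0.44 to 0.07) did not pass (edgeR adjusted p = 0.189). The median of all genes was 0.14 with library totals alone, beside -0.05 with TMM, and under that scaling Eed was at 0.13 and Suz12 at 0.00072.

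Of the histone-binding PRC2 subunits, Rbbp4 fell to 366, 338 and 336 CPM in the AEL libraries, against 697, 629.9 and 634 CPM in NC (log2 fold change -0.92, SE 0.11), and Rbbp7 did not pass. RBBP4 also serves chromatin assembly and deacetylase complexes. Of 6 tested accessory subunits, which steer PRC2 to its sites, 2 rose and 2 fell, with a median of 0.17. The shares over all genes tested were 23.9% higher and 29.0% lower. Phf19, a Polycomb-like Tudor protein, was at 0, 1.09 and 0.274 CPM in the AEL libraries, against 12.1, 12.2 and 13.5 CPM in NC (log2 fold change -4.76, SE 0.84, edgeR adjusted p = 0.00379). Its relative Phf1 fell by 0.90 (SE 0.29), a call lost with the replicate block, with library totals alone, without AEL replicate 1 or 3 and without any NC replicate (adjusted p up to 0.128). The third Polycomb-like protein, Mtf2, rose by 0.42 (SE 0.13), lost with the replicate block and without any NC replicate (adjusted p up to 0.102). Aebp2, a zinc finger cofactor, rose to 118, 115 and 127 CPM in the AEL libraries, against 83.0, 77.7 and 80.0 CPM in NC (log2 fold change 0.58, SE 0.10). Jarid2 and Lcor did not pass, and Epop and Ezhip were not among the genes analysed here.

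Ezh2 is known to be expressed with genes of the cell cycle. Of 25 S phase and mitosis genes tested, 23 fell and 0 rose, with a median log2 fold change of -1.24. Mki67 and Top2a did not pass, at -0.50 and -0.28 (edgeR adjusted p = 0.0823 and 0.161). The calls of Cdc20 and E2f2 were lost without any single NC replicate (edgeR adjusted p up to 0.0703). That of Cdc20 was also lost with library totals alone, and that of Bub1 without NC replicate 1 or 3. Among all genes tested 29.0% fell and 23.9% rose. Rrm2, a ribonucleotide reductase subunit, was at 242, 183 and 183 CPM in the AEL libraries, against 1487, 1356 and 1521 CPM in NC. Tk1, thymidine kinase, and Ccnb2, a mitotic cyclin, had log2 fold changes of -2.58 (SE 0.36) and -2.49 (SE 0.25). The genes closest to Ezh2 in pattern, by root mean square difference of centred log2 CPM over the 6 libraries among 8931 genes, were Ube2a (0.0380), Rnf40 (0.0403) and Smarcb1 (0.0452).

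Bmi1 (chromosome 2, 18677018 to 18686629) had the largest rise of the 10. It stood at 98.8, 93.4 and 127 CPM in the AEL libraries, against 40.4, 40.9 and 34.2 CPM in NC. No AEL library came near any NC library, and the fold was 2.76 (log2 fold change 1.47, SE 0.16, edgeR adjusted p = 0.000764). Under all 16 alternatives it passed, with log2 fold changes of 1.35 to 1.66.

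Genes of the canonical PRC1 partners went both ways. Of 10 tested CBX, PHC and SCM genes, 2 rose and 4 fell, with a median of -0.71. These counts were near the background, with 23.9% of all genes tested higher and 29.0% lower. Phc1, a polyhomeotic subunit that links PRC1 complexes, rose to 55.8, 40.0 and 73.5 CPM in the AEL libraries, against 4.77, 7.68 and 7.14 CPM in NC (log2 fold change 3.11, SE 0.31), and Phc3 rose by 1.03 (SE 0.21), while Phc2 did not pass. Scmh1, a PHC-binding member of the sex comb on midleg family, was close to the floor of 3 counts, at 0.563, 0.326 and 0.274 CPM in AEL (5, 3 and 3 counts) and at 42.5, 35.9 and 41.2 CPM in NC (log2 fold change -6.66, SE 0.32, edgeR adjusted p = 7.62e-05). Its relative Scml2 was at 2.59, 0 and 0.366 CPM in the AEL libraries, against 15.5, 13.9 and 8.75 CPM in NC (log2 fold change -3.70, SE 1.05), a call lost without any single NC replicate (adjusted p up to 0.0785, edgeR). Cbx6, a chromodomain reader of the H3K27 mark that was also called lower, was at 9.11 to 96.7 CPM over AEL, beside 194 to 206 CPM in NC, and its call was lost without AEL replicate 1, without any NC replicate and with library totals alone (adjusted p up to 0.115). Markers of neutrophils, macrophages and other leukocytes were lower in the same AEL libraries, as given above, and their part in the falls of Phf19, Scmh1, Scml2 and Cbx6 was not tested.

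Of 6 tested RING and PCGF genes, which form the catalytic core of PRC1, 1 rose and 0 fell, with a median of 0.00. Over all genes tested 23.9% were higher and 29.0% lower. Pcgf6 rose by 0.82 (SE 0.22), lost without NC replicate 2 or 3 (adjusted p = 0.0754 and 0.0757, edgeR), and the ring ligases Ring1 and Rnf2 did not pass. Ring1 and Pcgf5 had every AEL library below NC, at log2 fold changes of -0.49 and -0.46 (edgeR adjusted p = 0.0589 and 0.0993). The groups of Rnf2, Pcgf1 and Pcgf3 overlapped. Of this list 2 genes were called lower without AEL replicate 2, and 1 each with DESeq2 and without a filter on low counts. Pcgf2, the closest relative of Bmi1, held only 0, 2 and 1 counts in AEL and 6, 13 and 17 counts in NC and was below the filter. Among variant PRC1 genes 5 of 12 rose and 1 fell, beside 23.9% higher and 29.0% lower over all genes tested, with a median of 0.41. The number that rose was 9 with library totals alone, 9 without AEL replicate 2 and 3 without NC replicate 1. The calls of L3mbtl2, without any single NC replicate, and of Wdr5, without NC replicate 1 or 3 and with the replicate block, were lost (edgeR adjusted p up to 0.0777). Mga, a MAX partner of the PCGF6 complex, rose to 163, 166 and 168 CPM in the AEL libraries, against 43.1, 53.5 and 59.9 CPM in NC (log2 fold change 1.66, SE 0.15). Kdm2b and Bcor, which belong to the PCGF1 complex that binds CpG islands, rose by 1.12 (SE 0.12) and 0.98 (SE 0.11) on the log2 scale. Bcorl1, the relative of Bcor, was at 27.8, 8.03 and 14.1 CPM in the AEL libraries, against 45.6, 51.7 and 67.4 CPM in NC (log2 fold change -1.72, SE 0.44), a fall lost without NC replicate 3 (adjusted p = 0.0610, edgeR). Among 4 other H2A deubiquitinases, Mysm1 and Usp16 rose by 0.97 (SE 0.25) and 0.58 (SE 0.16), Usp21 fell by 0.68 (SE 0.21) and Usp3 did not pass. The call of Mysm1 was lost without NC replicate 1 or 2, and those of Usp16 and Usp21 without any single NC replicate and with the replicate block (edgeR adjusted p up to 0.0971). Usp21 was also lost with library totals alone and without AEL replicate 2.

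**Figure D3:**
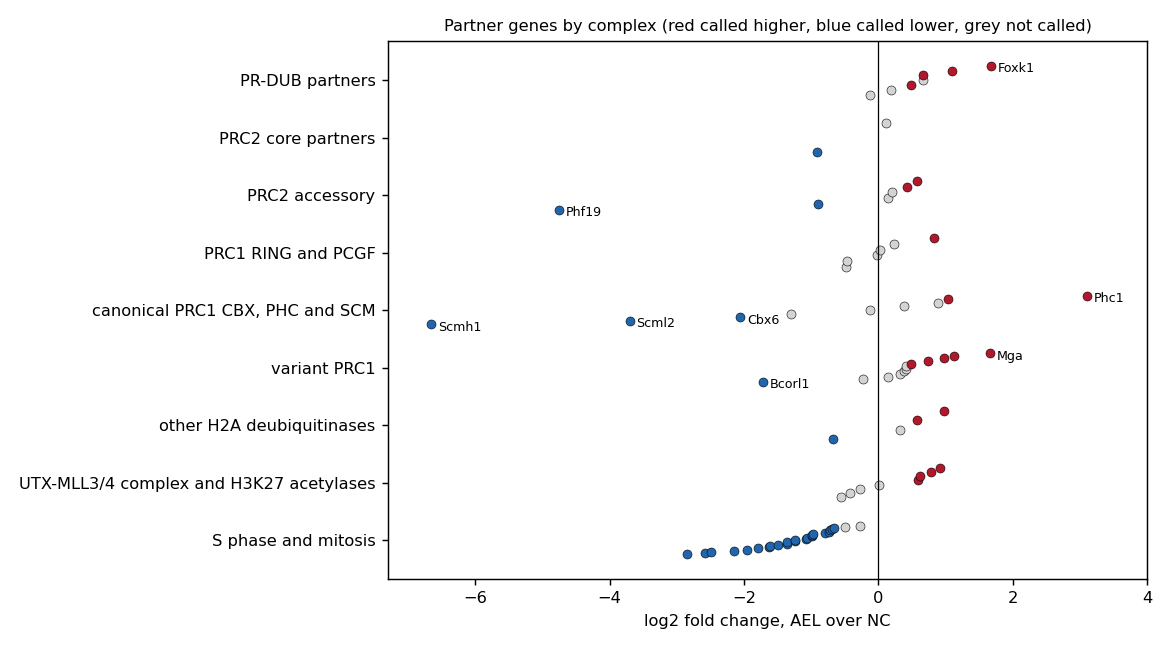
Log2 fold change of AEL over NC for the tested partner genes reported here, 1 row per complex, with S phase and mitosis genes in the bottom row, and with genes beyond 1.6 in the complexes named. Scmh1 at -6.66 and Phf19 at -4.76 lie farthest left, Phc1 at 3.11 lies farthest right, and 23 of the 25 cell cycle genes are called lower.

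The H3K27 demethylases parted: Kdm6b fell and Kdm6a did not pass. Kdm6b (chromosome 11, 69398508 to 69420367), the inducible enzyme, stood at 12.04, 20.7 and 15.6 CPM in the AEL libraries, against 40.0, 47.8 and 54.8 CPM in NC. The highest AEL library was well below the lowest NC library, and the log2 fold change was -1.56 with SE 0.25 (edgeR, adjusted p = 0.00250). Kdm6b is known to be induced in macrophages by inflammatory signals. The lowest AEL value was in replicate 1, where the neutrophil and macrophage marker sums were also lowest (18.1 and 9.79 CPM), and the highest in replicate 2, where they were highest (1089 and 262 CPM). The part of those cells in the fall was not tested. Kdm6b lies 159981 bases from Trp53, which rose, and of the 2 tested genes between them 0 passed. Its nearest tested neighbours were Naa38, 1837 bases away, at 23.4 ± 6.46 CPM over AEL, beside 38.6 ± 3.83 CPM over NC (SD, n = 3 per group, log2 fold change -0.72, edgeR adjusted p = 0.0379), and Efnb3, which did not pass.

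Kdm6a (chromosome X, 18160862 to 18279936), the constitutive enzyme, was at 66.2, 78.9 and 62.7 CPM in the AEL libraries, against 70.4, 67.7 and 73.6 CPM in NC. The groups overlapped, and the log2 fold change of -0.03 had a 95% interval of -0.34 to 0.29. The log2 CPM difference of Kdm6b minus Kdm6a averaged -2.09 ± 0.28 in AEL and -0.58 ± 0.21 in NC (SD, n = 3 per group), a change of -1.52 (exact permutation p = 0.1, two-sided, the smallest possible). Uty, the Y-linked relative of Kdm6a, was at 34.2, 38.5 and 1.37 CPM in the AEL libraries, against 40.0, 33.5 and 35.1 CPM in NC, so AEL replicate 3 stood apart. Its log2 fold change was -0.56, which did not pass, and 0.03 when that library was left out. In that library the Kdm6a level, 62.7 CPM, was the lowest of all 6.

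Of 8 genes of the KDM6A-containing methyltransferase complexes and the H3K27 acetylases, 4 rose and 0 fell, with a median of 0.29. The background was 23.9% higher and 29.0% lower over all genes tested. Kmt2c and Kmt2d, the MLL3 and MLL4 enzymes, rose by 0.61 (SE 0.15) and 0.91 (SE 0.31), their subunit Ncoa6 by 0.79 (SE 0.15) and the acetylase Ep300 by 0.59 (SE 0.15). Kmt2d was at 303, 154 and 175 CPM in the AEL libraries, against 85.2, 106 and 144 CPM in NC, and its call was lost without AEL replicate 1 (adjusted p = 0.0504, edgeR). The calls of Kmt2c, Kmt2d and Ep300 were lost without NC replicate 1 or 2, and those of Kmt2d and Ep300 with the replicate block (adjusted p up to 0.133). Crebbp, the partner of Ep300, did not pass. The complex subunits Paxip1 and Pagr1a did not pass either, at log2 fold changes of -0.28 and -0.42 (edgeR adjusted p = 0.0789 and 0.0677). For both, every AEL library was below every NC library.

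**Figure D4:**
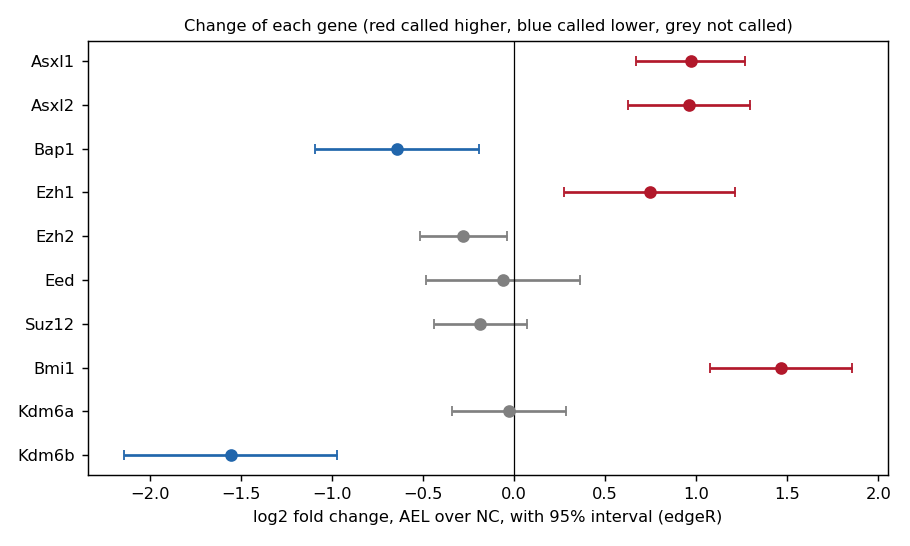
Log2 fold change of AEL over NC for the 10 genes, with 95% intervals from the edgeR fit. Bmi1 at 1.47 and Kdm6b at -1.56 lie farthest out, and the intervals of Eed, Suz12 and Kdm6a include 0.

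Levels were compared between genes per kilobase of exon. Suz12 and Ezh2 led in both groups, with 64.7 ± 5.86 and 34.5 ± 2.10 CPM per kilobase in AEL and 73.5 ± 1.55 and 41.9 ± 1.47 in NC (SD, n = 3 per group). With the longest coding transcript as the length, Ezh2 came first and Suz12 next. Kdm6b was last in AEL under both lengths, at 2.32 ± 0.63 CPM per kilobase of exon. In AEL the neighbours Asxl1 (27.4 ± 3.34) and Bmi1 (26.8 ± 4.51) differed by less than their SDs, as did Ezh1 (8.32 ± 1.95) and Kdm6a (8.26 ± 1.01). In NC the lowest pair, Asxl2 (5.15 ± 0.71) and Ezh1 (4.96 ± 0.41), likewise differed by less than their SDs. By longest coding transcript the lowest NC pair was instead Asxl2 (6.88 ± 0.95) and Kdm6b (7.14 ± 1.12). In AEL Asxl2 (13.4 ± 1.19) then lay between Ezh1 (14.7 ± 3.44) and Kdm6a (11.7 ± 1.43).

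Polycomb is known to keep Hox genes and the Cdkn2 locus silent. Of 39 Hox genes, 2 were in the table: Hoxa9 held 0, 1 and 0 counts in AEL and 28, 14 and 14 counts in NC, and Hoxb4, below the filter, held 0, 5 and 1 counts in AEL and 7, 15 and 19 counts in NC. The other Hox genes were not analysed here. At the Cdkn2 locus, a classic target of BMI1, Cdkn2a was at 238, 118 and 75.7 CPM in AEL (2115, 1083 and 828 counts) and held 0, 0 and 1 counts in NC, and Cdkn2b was at 6.64, 2.93 and 1.74 CPM in the AEL libraries, against 0.258, 0.236 and 0.115 CPM in NC. Among AEL libraries both Cdkn2 genes were highest in replicate 1 and lowest in replicate 3. Bmi1 was lowest in replicate 2 and highest in replicate 3. Bmi1 and both Cdkn2 genes were called higher in AEL than in NC, and a link between them was not tested.

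The gene closest to Asxl1 in pattern over the 6 libraries was 5830417I10Rik (root mean square difference of centred log2 CPM 0.0388), at 116, 129 and 99.6 CPM in the AEL libraries, against 57.1, 58.1 and 61.3 CPM in NC. Zfp407 (0.0632) and Ints12 (0.0773) came next. Across the 8 partner lists of the complexes together, without the cell cycle genes and the targets, 20 of 55 tested genes rose and 9 fell, with a median log2 fold change of 0.32 beside -0.05 for all genes. The 29 called are 52.7% of the 55, at the background of 52.8%, with 36.4% higher and 16.4% lower beside 23.9% and 29.0% of all genes. With library totals alone 26 rose and 6 fell. Without NC replicate 1 the numbers were 11 and 5, without NC replicate 2 they were 9 and 5, and without NC replicate 3 the number that fell was 4.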

How the data were processed

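Poly-A RNA of sorted mouse marrow cells was sequenced, 3 AEL and 3 NC libraries, per the labels' protocols. The authors deposited whole-number counts per gene in a table named as CPM. The submitters' processing notes list mm10 and edgeR 3.32.1; no source used here states the aligner, counter or strand setting. Of 13007 genes, 12427 reached 1 CPM in 3 libraries and were tested with edgeR 4.0.16 (R 4.3.3): TMM scaling, group as the only term, quasi-likelihood test, Benjamini-Hochberg adjustment over all of them at 0.05. Printed CPM values carry TMM factors (1.04 to 1.10 in AEL, 0.925 to 0.949 in NC). SEs come from the fold change and the root of F. Paralog differences used log2(CPM + 0.5) and an exact permutation test. A count of 3 equals 0.302 to 0.367 CPM, counting error only. Limma 3.58.1 and DESeq2 1.42.0 served as alternatives. RefSeq GRCm38.p6 matched 12254 names by symbol and 475 by synonym, and 278 had no match; exon lengths came from GENCODE. The fit was also run on simulated data with the same spread in both groups. That run did not test the unequal spread seen here (biological coefficient of variation 44.3% in AEL and 9.02% in NC). Deviations of same-numbered AEL and NC libraries correlated weakly, which cannot exclude a pairing.

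The members and lists were chosen with earlier results of these data known. The text names all 10 members, every called gene of lists with 8 or fewer measured genes, in longer lists the 3 largest calls in each direction with groups apart, the nearest tested neighbours of Kdm6b and Bap1, and the 3 genes most like Asxl1 and Ezh2. Cbx6, L3mbtl2, Wdr5, Pcgf2, Uty, Bub1, Cdc20, E2f2 and partner or cell cycle genes that did not pass were named after their values were seen. One gene that the naming rule gives is not reported here.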

Additional observations from a re-analysis of the deposited data

How the results depend on the processing

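Asxl1, Asxl2, Bmi1 and Kdm6b passed the edgeR threshold, or that of DESeq2 or limma, under all 16 alternatives. The members called lower numbered 1, not 2, with library totals alone and without chromosomes 3, 9, 14, 19 and Y (Bap1 lies on 14), and 1 to 2 with single libraries left out. They numbered 3 with DESeq2, with limma at either pseudocount and without a filter on low counts, where Ezh2 also passed. Without AEL replicate 3 the number stayed at 2, with Ezh2 called and Bap1 not. With library totals alone the log2 fold change was 0.13 for Eed, 0.00072 for Suz12 and 0.16 for Kdm6a, and without those chromosomes 0.0087 for Kdm6a. Leaving out single libraries gave -0.15 to 0.15 for Eed, -0.088 to 0.078 for Kdm6a, -1.04 to 0.035 for Uty and -0.16 to 0.12 for the Asxl2 to Asxl1 difference. It gave 4 to 6 members called (3 to 4 higher), 4612 to 7296 genes called (1915 to 3375 higher, 2662 to 3921 lower) and 14 to 35 partner genes called (9 to 25 higher, 4 to 10 lower). Without AEL replicate 1, 2 or 3 the genes called were 6810, 7296 and 6437, and without NC replicate 1, 2 or 3 they were 4612, 4634 and 4744. Of called genes, 45.2% were higher with TMM, 55.2% under library totals alone and 55.5% after quantile normalization. With the replicate block 5 members, 5479 genes and 21 partner genes were called, and Ezh1 was at 0.72 (adjusted p = 0.0517). Correlations of deviations between same-numbered libraries were 0.0797, -0.0665 and -0.106, and those of the other AEL and NC pairs were -0.101 to 0.152. With 3 libraries per group this check cannot exclude a pairing or a shared batch. The cause of these changes was not tested.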

Other observations

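AEL replicate 3 was low in other Y-linked genes beside Uty. Ddx3y was at 78.0, 114 and 4.76 CPM across the AEL libraries, against 77.0, 87.5 and 84.9 CPM across NC. Kdm5d, an H3K4 demethylase, was at 21.7, 32.0 and 1.01 CPM across AEL, against 19.6, 19.6 and 24.4 CPM across NC. Eif2s3y was at 80.3, 84.5 and 5.21 CPM across AEL, against 104, 89.7 and 83.7 CPM across NC.

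The neighbours of Scmh1 on chromosome 4, chosen after its values were seen, differed in direction. Ctps, 9668 bases away, rose with a log2 fold change of 0.58 (edgeR adjusted p = 0.0285, higher in 3 of 3 AEL libraries). Hivep3, 267105 bases away, held 2, 2 and 0 counts across AEL, against 20, 12 and 23 counts across NC.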
